A study of Bos taurus with 2 samples.

Results

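The cytochrome P450 genes are the genes whose current symbol, or whose name on the array, begins with CYP and a number, without CYP51 and CYP51A1. On this bovine array 97 of 43653 probes, for 43 of 17372 named genes, met that rule. The arrays were hybridised with RNA from mammary tissue of adult Chinese Holstein cows in late lactation, 1 array labelled mastitis and 1 labelled normal. The study describes clinical mastitis judged from milk cell counts, a milk test and histology, with 3 cows per group, and does not say which cow is behind either array. Its methods state antibiotic treatment for the cows with mastitis only, and the effects of disease and treatment cannot be told apart. With 1 array per group there is no replicate check of any difference and no p-value.

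Cytochromes P450 are haem proteins that insert an oxygen atom into small fat-soluble molecules, with electrons from NADPH that reach them through a reductase in the endoplasmic reticulum or through a ferredoxin in mitochondria. Some families have broad substrate ranges and clear drugs, plant compounds and pollutants, chiefly in liver and gut. Others carry out single steps in the making or breaking of steroid hormones, bile acids, vitamin D, retinoic acid and bioactive fatty acids, often in a few specialised cell types.

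Signals are given as net signals, the Cy3 fluorescence of a probe after the mean of the negative control spots had been subtracted. Probes counted as well above background had a net signal over a limit set 2.6 SD above the mean of 153 negative controls, 7.10 for mastitis and 8.74 for normal, at a spot that the scanner software could find. A gene was measured when at least 1 probe was well above background on both arrays. Signals were scaled by the 75th percentile of their array, which was 210 (mastitis) and 128 (normal). A probe that is 1.64 times brighter on the mastitis array therefore has a log2 ratio of 0, and a positive ratio means higher on the mastitis array. Gene values are means of the log2 ratios of measured probes, and the SD over probes is a technical spread, pooled at 0.44 over all genes on the log2 scale. For probes with several spots on the array the pooled SD was 0.16.

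Most P450 probes were dim in this tissue. On each array 46 of the 97 probes (47.4%) were well above background, against 70.2% of all probes (mastitis) and 67.0% (normal). By gene, 23 of the 43 (53.5%) were measured on both arrays, against 71.8% of all named genes. On 1 array alone there were 3 further genes well above background for mastitis and 5 for normal, and 12 genes were on neither. The 12 include CYP7A1, the first and rate-limiting step of bile acid synthesis, CYP8B1, which directs that pathway to cholic acid, CYP2E1, the ethanol oxidase of the liver, and CYP27B1, which makes active vitamin D. The others are CYP1A2, CYP26A1, CYP26B1, CYP27C1, CYP3A28 and the CYP2C genes CYP2C87, CYP2C89 and CYP2C90. For these 12 genes the arrays give no ratio, and a level under the background limit is not shown to be absent.

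**Figure D1:**
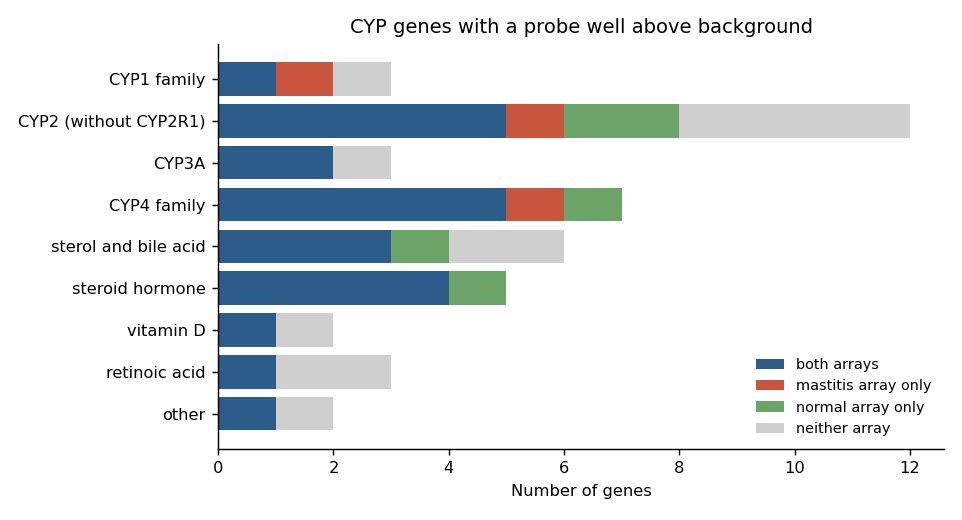
Number of CYP genes in each role (horizontal bars, from 0) that had a probe well above background on both arrays, on 1 array or on neither. The 4 genes on neither array in the CYP2 bar are CYP2C87, CYP2C89, CYP2C90 and CYP2E1, and every CYP4 and steroid hormone gene was detected on at least 1 array.

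On the mastitis array 2 of the 23 measured genes (CYP1A1 and CYP4V2) were higher by 2-fold or more, 4 (CYP3A74, CYP3A76, CYP26C1 and CYP17A1) were lower by that much, and 17 lay within 2-fold. The same limit was passed upwards by 2.29% and downwards by 9.12% of all 12473 measured genes. Both member shares lie above these, but they rest on 2 and 4 genes and were not tested. The median log2 ratio of the 23 genes was -0.25, with 9 above 0 and 14 below, beside a median of -0.15 over all measured genes. The quartiles of the members were -0.61 and 0.24 and those of all genes -0.52 and 0.20. The median depends on the scaling, since it was -0.01 when the arrays were scaled on spike-in probes and 0.47 without scaling, where the median of all genes was 0.09 and 0.57. These scalings shift every gene alike and keep the median 0.10 below that of all genes. Members minus all genes was -0.044 with quantile normalization and -0.178 with genes named by their array names only. The members lay 0.004 above all genes with normexp (a model of the background with an offset of 50 added at every spot). They lay 0.037 above with the brightest probe of each gene and 0.056 above at a net signal of at least 50.

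The 4 lower genes were all dim. Of 11 measured members with no measured probe at a net signal of 100 or more, 4 were past 2-fold on the lower side and 0 on the higher side. Of all 4120 genes as dim as that, 13.8% passed 2-fold downwards and 1.36% upwards. The spread between probes of a gene was also wider at low signal. Among probes of a gene in the same signal class, the pooled SD was 0.50 under a net signal of 20 and 0.31 at 200 or more. The class was set by the geometric mean of the signals of a probe on the mastitis and the normal array.

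**Figure D2:**
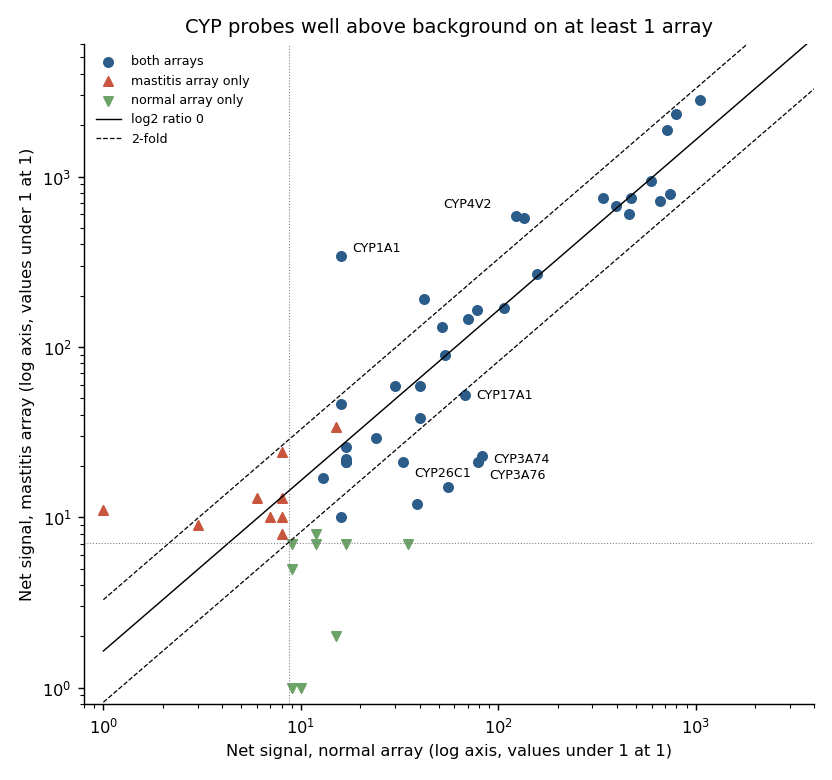
Net signal of each CYP probe well above background on at least 1 array, on the normal array (horizontal) and the mastitis array (vertical), both on log axes with values under 1 drawn at 1. The 42 probes above background on neither array are not drawn. Solid line, log2 ratio 0 after scaling; dashed lines, 2-fold; dotted lines, background limits. CYP1A1 and 3 probes of CYP4V2 lie above the upper dashed line, and measured probes of CYP3A74, CYP3A76, CYP26C1 and CYP17A1 lie below the lower dashed line at net signals under 100.

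The CYP1 family oxidises polycyclic aromatic compounds and oestrogens, and its genes are the classical targets of the aryl hydrocarbon receptor. One CYP1A1 probe read 343 (mastitis) and 16 (normal), which is 13.1-fold higher (log2 ratio 3.71). Moving both signals by 1 SD of the negative controls in opposite directions took that ratio from 3.48 to 3.98. The other 3 CYP1A1 probes did not show a signal of this size. They read 6 and 3, 3 and 6, and 11 and -2 on the mastitis and the normal array, and only the last was clear of background, and only for mastitis. The bright probe carries no Ensembl transcript in the annotation of the array while the 3 dim ones do, so the 13.1-fold value rests on a single probe. With normexp the same probe gave 3.90-fold. When no filter was set on dim probes, signals under a floor common to both arrays were raised to it. That left the 3 dim probes without a difference. The mean over all 4 probes was then 1.90-fold higher, a value set by the bright probe and the floor.

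CYP1B1, which hydroxylates oestradiol outside the liver, read 24 and 8, 9 and 3, and -2 and 4 in the same order. The first 2 probes were above background on the mastitis array and none was on the normal array, which gives a bound of at least 1.63-fold higher. CYP1A2, the neighbour of CYP1A1 in the genome and mainly a liver enzyme, was at 7 and 9, 4 and 9, and 6 and -3, with the normal spots at 9 not found by the software, and so above background on neither array. Of the 10 probes of the CYP1 family, 1 carried the high signal on the mastitis array.

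Among the CYP2 genes, which act on drugs and on fatty acids, 5 of 12 were measured on both arrays and all 5 lay within 2-fold, with a median of -0.04. CYP2U1, a fatty acid hydroxylase, was the highest of them, at 145 (mastitis) and 70 (normal) (log2 ratio 0.34). CYP2D14, the lowest, was bright on both arrays at 791 and 741 (-0.62). Its neighbour CYP2D43 read 269 and 157 (0.06). The sequences of these neighbouring genes are alike and 1 dim CYP2D43 probe is also listed for CYP2D14, so their signals may be mixed. CYP2S1, found mostly outside the liver, read 748 and 470 at 1 probe (-0.04), while its other 2 probes were at 4 and 4 and at 6 and 7. CYP2A13 read 21 and 17 (-0.41). Like CYP1A1, CYP2S1 had 1 bright probe without an Ensembl transcript and dim probes elsewhere.

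CYP2B6, a drug oxidase, was above background on the normal array alone. Its best probe read 2 (mastitis) and 15 (normal), a bound of at least 3.08-fold lower for that probe, and the next read 7 and 9. The last, at 7 and 6, was above background on neither array. CYP2J2, which makes epoxides from arachidonic acid, read 5 and 9, a bound of at least 1.85-fold lower. That value was fixed by the limits, since the dimmest counted signals, 9 for normal and 8 for mastitis, give it after scaling. CYP2C23 read 10 and 8 and was above background on the mastitis array alone, with no bound over 1. None of the readings of these 3 genes was over 15.

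The CYP3A enzymes oxidise a large part of all drugs in liver and gut, and they are named CYP3A4 and CYP3A5 on the array. CYP3A76 read 21 (mastitis) and 79 (normal) at 1 probe, and 15 and 56 at another. It was 6.15-fold lower (log2 ratio -2.62 ± 0.01, SD over 2 probes). Another probe, at 1 and 10, was above background on the normal array alone, and the last, at 0 and 6, on neither. CYP3A74, which lies next to CYP3A76 in the genome with no gene between them, read 23 and 83 at 1 probe and 12 and 39 at another, 5.62-fold lower (-2.49 ± 0.11, SD over 2 probes). The remaining probe read 8 and 12.

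The 4 measured CYP3A probes had log2 ratios between -2.63 and -2.41, the lowest of the measured P450 probes. They cannot be counted as separate evidence, because the probe at 12 and 39 is listed for both genes. Without it CYP3A74 stood at -2.57. The size depends on the background correction. With normexp CYP3A74 was 2.25-fold and CYP3A76 2.39-fold lower. Both remained at least 2-fold lower under every scaling tried. CYP3A28, nearby in the same cluster, read 3 and 4 and was above background on neither array. In whole tissue a loss of the cells that express a gene and less RNA per cell cannot be told apart.

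The CYP4 enzymes hydroxylate the far end of fatty acids and leukotrienes. CYP4V2, the fatty acid hydroxylase altered in an inherited retinal crystal disease, was higher at several probes. Its 3 measured probes read 572 and 135, 589 and 123, and 190 and 42, each brighter on the mastitis array. The gene was 2.75-fold higher (1.46 ± 0.09, SD over 3 probes), and the fourth probe read 34 and 15, with the normal spot not found by the software. With normexp the value was 2.15-fold. The other 4 measured CYP4 genes lay within 2-fold, from -0.56 for CYP4A11 to -0.25 for CYP4F3 (LOC534967).

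CYP4A11 read 38 and 40 at 1 probe and 17 and 13 at another, both dim. CYP4A22 was bright at 1 probe, at 604 and 462 (-0.33), while 2 probes of the same transcripts read 2 and -2 and 3 and 3. CYP4B1 read 21 and 17. The array holds 2 entries named CYP4F2, an enzyme that inactivates leukotrienes and vitamin K, and their readings differed. LOC507615 read 7 (mastitis) and 35 (normal), at least 7.18-fold lower, and LOC507016 read 10 and 7, above background on the mastitis array alone with no bound over 1. The CYP4F genes lie in 1 cluster and are alike in sequence, and the other LOC507615 probe was above background on neither array.

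**Figure D3:**
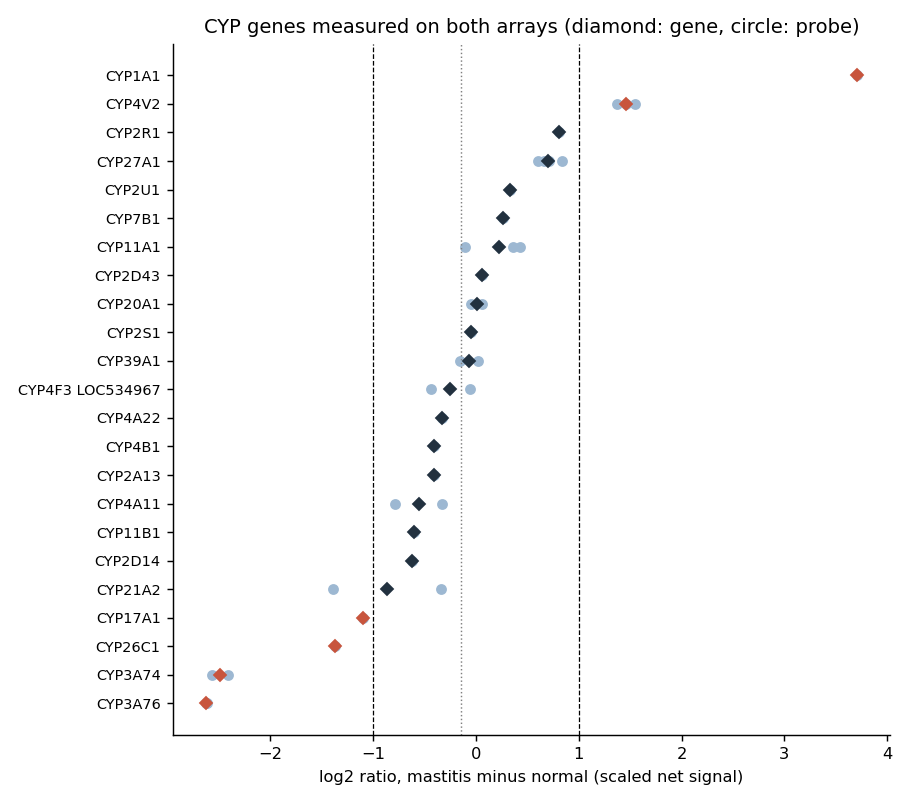
Log2 ratio of mastitis over normal, on the scaled net signal, for the 23 CYP genes measured on both arrays. Diamonds, gene values (orange at least 2-fold apart); pale circles, single probes; dashed lines, 2-fold; dotted line, the median of all measured genes at -0.15. CYP4V2 and both CYP3A genes have probes that lie close together, and CYP21A2 has the widest spread.

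Among the P450 genes of sterol and bile acid metabolism, CYP27A1 was the highest by ratio. This mitochondrial enzyme, which hydroxylates the side chain of cholesterol, read 2827 and 1054, 2332 and 797, 1874 and 720, and 130 and 52 on the mastitis and the normal array. It was 1.63-fold higher (0.70 ± 0.10, SD over 4 probes), under the 2-fold limit, and 2.67-fold higher without scaling. All 4 probes gave ratios of the same sign. CYP39A1, which hydroxylates an oxysterol, was the lowest of this role at 90 and 54 and at 59 and 40 (-0.07). CYP7B1, another oxysterol hydroxylase, read 59 and 30 (0.26). CYP46A1, the cholesterol hydroxylase of brain, was above background on the normal array alone. It read 7 and 17 at its best probe, a bound of at least 3.49-fold lower for that probe, and 7 and 12 and 3 and 3 at the others.

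Of the 5 genes of steroid hormone synthesis, 4 were measured on both arrays and aromatase on the normal array alone. CYP11A1, which cleaves the side chain of cholesterol in the first step, was the highest at 753 and 341, 164 and 78, and 26 and 17 (0.23 ± 0.29, SD over 3 probes). CYP17A1, the branch enzyme towards androgens and cortisol, read 52 and 68 at 1 probe, 2.15-fold lower (-1.10). Its other probe was at 2 on both arrays. The call for CYP17A1 is narrow, since it was 1.93-fold lower with the arrays scaled by the median, 1.82-fold on spike-in probes and 1.65-fold with normexp.

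CYP21A2, the adrenal hydroxylase, had probes that disagreed most, at 10 and 16 and at 22 and 17 (-0.87 ± 0.74, SD over 2 probes). They are separate entries on the array, the former named CYP21 and the latter CYP21A2. With array names only, CYP21 was 2.6-fold lower and counted among the lower genes. The remaining probe, also named CYP21, read 3 and 5 and was above background on neither array. CYP11B1, which completes cortisol, read 717 and 663 at 1 probe (-0.60) and between 1 and 5 at the other 2. CYP19A1, the aromatase that makes oestrogens, read 0 and 9 at its best probe, a bound of at least 1.85-fold lower for that probe. The reading of 9 is just over the background limit of 8.74, and the other 4 CYP19A1 probes were above background on neither array. Its bound is the one that the dimmest counted signals of the arrays give after scaling. The defining markers of steroidogenic cells were mostly at background, with 3 of 4 (NR5A1, HSD3B1 and MC2R) on neither array and STAR at 155 and 48 at its brightest. Their part in these values was not tested.

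For vitamin D, CYP2R1, the main hydroxylase of its first activation step, read 46 and 16 at its 1 probe, 1.75-fold higher (0.81), the highest ratio among the genes within 2-fold. It passed 2-fold on spike-in scaling (2.07-fold) and stood at -0.0043 with normexp. The vitamin D receptor gene VDR read 27 and 165 at its 1 probe, 10.0-fold lower. For retinoic acid, CYP26C1, an enzyme that breaks it down, read 21 and 33, 2.58-fold lower (-1.37) from 1 probe. CYP26A1 and CYP26B1 were above background on neither array. With normexp CYP26C1 was 1.65-fold lower. CYP20A1, a P450 of unsettled function, was bright and near 0 at both probes (942 and 592, and 676 and 396), with a ratio of 0.01.

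**Figure D4:**
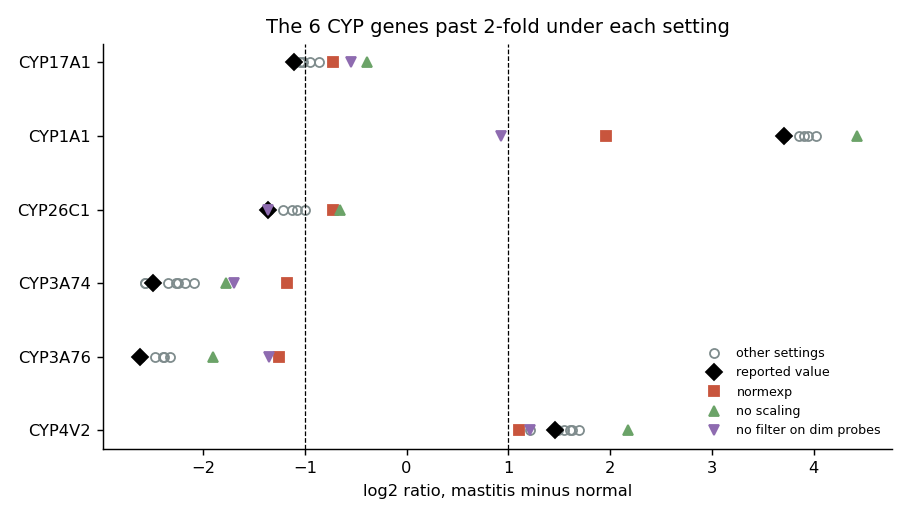
Log2 ratio of the 6 CYP genes past 2-fold, as reported and under each other setting that gave a value, without the deposited table in its labelled row order. Dashed lines, 2-fold. CYP3A74, CYP3A76 and CYP4V2 stay outside the lines, CYP1A1 comes inside without a filter on dim probes, and CYP17A1 and CYP26C1 come inside with normexp and without scaling.

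The partners of P450 enzymes and the receptors that act on their genes were described by 9 lists, with 95 genes measured. In these lists 14 genes were past 2-fold, beside 2.29% upwards and 9.12% downwards of all measured genes, and the lists were not tested. Of the 11 measured electron donors none passed 2-fold, with a median of -0.06. The reductase POR, which feeds the P450s of the endoplasmic reticulum, stood at -0.06 (SD 0.24, 3 probes), and the mitochondrial pair FDX1 and FDXR at 0.15 and 0.31. The highest were PGRMC1 at 0.48 and FDXR, and the lowest CYB5B at -0.74 and PGRMC2 at -0.22. Of 9 genes of haem synthesis and breakdown none passed 2-fold (median -0.20), from HMOX2 at -0.78 and CPOX at -0.61 to UROS at 0.75 and HMOX1 at 0.94.

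In the aryl hydrocarbon receptor axis, 1 of 10 measured genes was past 2-fold, on the lower side, with a median of 0.14. The receptor gene AHR stood at 0.13 (SD 0.14, 2 probes) and its partner ARNT at 0.29 from 1 probe at 20 and 10. The repressor gene AHRR was above background on neither array. NQO1, a reductase gene that is a target of the receptor, was the highest at 0.76, followed by HSP90AA1 at 0.29, and ALDH3A1, another target, stood at -0.24. ARNT2, the only one past 2-fold, was 2.01-fold lower from 1 probe at 9 and 11. Its probes disagreed, since another read 44 and 3, over the background limit for mastitis only, and the remaining one read -3 and 5.

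Of 11 measured nuclear receptor genes, VDR alone passed 2-fold, and the median was -0.40. NR1H3, a receptor for oxysterols, was the highest at 0.89, followed by PPARG at 0.33, and RARA was the lowest after VDR at -0.93. NR1I2, the drug sensor of liver that governs CYP3A genes, was above background on neither array, and its relative NR1I3 stood at -0.86. In retinoid and vitamin D handling, 1 of 13 genes was past 2-fold on the higher side and 3 on the lower, with a median of -0.63. CRABP2, a carrier of retinoic acid, stood at 2.28 and RBP4 at 0.78. LRAT, which stores retinol as ester, stood at -3.02 and DHCR7, which consumes the vitamin D precursor, at -1.64. CRABP2 rests on 1 of its 3 probes, at 405 and 51, and LRAT read at most 13 on the mastitis array.

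Of 14 steroid partners, 1 passed 2-fold on each side (median -0.36). HSD17B11 stood at 1.27 and STAR at 0.54, and SRD5A1, a steroid reductase, at -1.60 and TSPO at -0.99. Of 20 genes of conjugation and hydrolysis, 3 passed 2-fold, all on the lower side (median -0.38). They ran from the oestrogen sulfotransferase SULT1E1 at -1.76 and GSTA1 at -1.13 to GSTA4 at 0.22 and GSTT1 at 0.79. SULT1E1 rests on 1 probe at 15 and 31 and GSTA1 on 1 probe at 9 and 12, near the background limits. Of 5 flavin and other oxidases, AOX1 at 1.13 and FMO5 at 1.07 were at least 2-fold higher and FMO2 at -2.69 was lower, with MAOB at 0.09. FMO2 rests on 1 of its 3 probes, at 32 and 126. The prostanoid synthases PTGIS and TBXAS1, which share the P450 fold, stood at 0.78 (SD 1.43, 3 probes) and -0.19. Of the 14 genes past 2-fold in these lists, 5 were past it with normexp and 8 without scaling, and none changed sign in either setting. Among all measured genes, 0.76% passed it upwards and 3.28% downwards with normexp, and 20.2% and 2.65% without scaling.

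**Figure D5:**
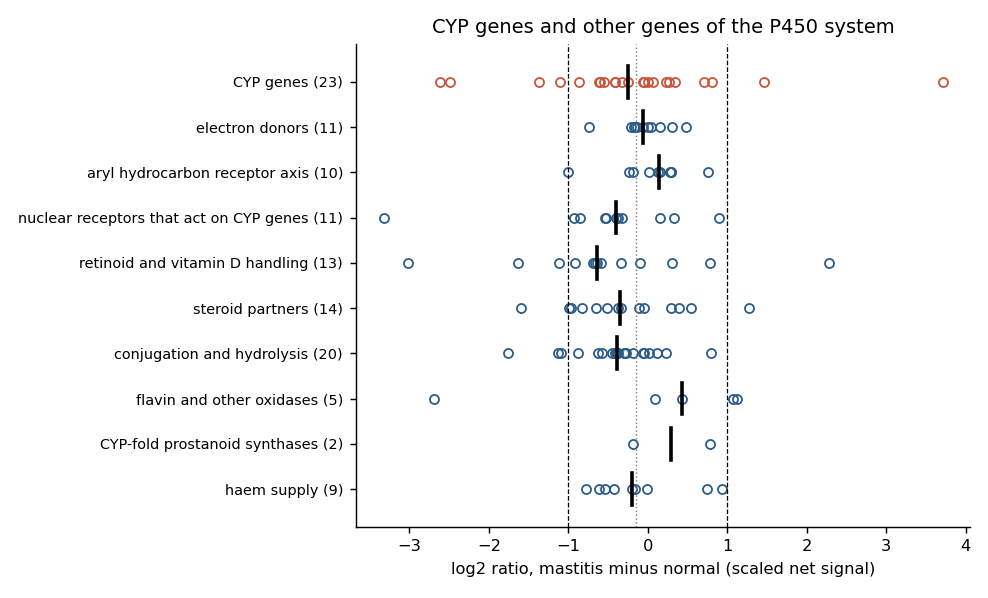
Log2 ratio of each measured gene (circles) for the CYP genes and for 9 lists of other genes of the P450 system, with the number measured in brackets. Thick bars, medians; dashed lines, 2-fold; dotted line, the median of all measured genes. The electron donors and the haem genes all lie within 2-fold. The farthest value on the higher side is CYP1A1 at 3.71, from 1 of its 4 probes. The next highest CYP gene, CYP4V2 at 1.46, lies below CRABP2 at 2.28.

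Markers of some cell types differed between the arrays as well, and those of others did not. The levels below are sums over a list of the brightest probe of each gene, as scaled net signals. All 5 measured milk protein genes were lower on the mastitis array by 2-fold or more, with a sum of 95.1 for mastitis and of at least 2962 for normal, where 2 of the 24 probes were saturated. The brightest LALBA probe had a net signal of 2 on the mastitis array. Of 7 measured luminal markers 1 was at least 2-fold lower, and the sums were 142 and 189.5 (29876 and 24256 before scaling, which turns the order). Of 6 macrophage markers 3 were higher and none lower (25.5 and 14.5), and of 5 neutrophil markers all 5 were lower (14.1 and 42.5). Of 6 measured hepatocyte markers, out of 12, TTR was 2.14-fold higher at its brightest net signals of 10094 and 2859, and FGG was 19.6-fold lower at 65 and 777. The hepatocyte sums were 61.3 and 49.8, mostly from TTR on the mastitis array, and ALB and APOH were above background on neither array. None of 7 measured endothelial and none of 5 measured myoepithelial markers passed 2-fold. Of 6 fibroblast markers 1 was lower, and of 3 measured adipocyte markers 2 were lower. Of 3 measured erythroid markers 1 was higher (HBB, 11.6-fold). The part of these cell types in the ratios of the P450 genes was not tested.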

How the data were processed

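Mammary RNA was labelled with Cy3 and hybridised to an Agilent bovine oligonucleotide array, 1 array per group, on the same slide and in the same scan. Per the file headers, GenePix Pro 6.1 took off the mean of the negative controls in each block and applied no scaling. For every spot the authors deposited an intensity, a flag, a signal-to-noise score (not used for any value) and the percent of pixels at saturation. Their deposited table of log2 values, made by a method not given in the sources used here, followed the net signal of the next probe in sorted order and not that of its own row (Spearman correlations across probes of 0.9998 and 0.10 for mastitis), so it served as an alternative only. For RNA and scanning, the labels name a miRNeasy kit and Agilent Feature Extraction and the paper names Trizol and an Affymetrix chip. The files have the layout given in their headers.

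Control spots did not enter, repeat spots were averaged and saturated spots kept (none of the 97 probes was saturated). Where 1 array alone had a gene well above background, the fold is a lower bound for its brightest probe there, not for the gene, and makes no allowance for spot noise. It sets the brightest probe against its own signal on the dim array or, if that was less, against the dimmest signal that counted as well above background there (a net signal of 8 for the mastitis and 9 for the normal array). After scaling, the 9 against the 8 already gives 1.85-fold lower, while the 8 against the 9 gives no bound over 1. Bounds on the lower side were therefore easier to reach. Genes were named through the accession on the array and the RefSeq gene table of ARS-UCD2.0, used for names and gene order only, since the genome build of the array is not given in the sources used here. The accession named 85 of the 97 probes, the symbol 11 and the array's own name 1, and 11 genes have another name on the array. A further 8 probes listed for a P450 transcript only as a secondary hit were kept apart. Members and gene lists were chosen with earlier results of these data known. Named were all members past 2-fold or with a bound, the highest and lowest of each role, and the 2 highest and 2 lowest genes of each list with AHR, ARNT, AHRR, POR, FDX1 and FDXR. Other members and genes named beside them were chosen after their values were seen.

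No test was possible with 1 array per group, and that number limits the precision. Alternatives to the background step and scaling were normexp with an offset of 50 (limma 3.58.1, R 4.3.3), quantile normalization, no scaling, and scaling on the median, on spike-in probes or on the percentile of probes measured on both arrays. Further alternatives were the deposited table as labelled and with rows moved by 1, other filters on dim, saturated and not found spots, the brightest probe, array names only, and fold limits of 1.5 and 3. The work used numpy 2.4.6, matplotlib 3.10.9, scipy 1.17.1 and pandas 2.3.3 in Python 3.11.15. The averaging over probes and the 2-fold limit were tried on simulated log2 ratios with noise at the SD of repeat spots (0.16). That trial did not cover the background limit, the scaling or the wider spread between probes of a gene.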

Additional observations from a re-analysis of the deposited data

How the results depend on the processing

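No paired analysis was possible because each group has 1 array. Of 18 alternatives, 2 were chosen after seeing the data (probes listed for a P450 transcript only as a secondary hit added, and the probe shared by CYP3A74 and CYP3A76 left out), and neither changed a count. CYP3A74 and CYP4V2 were past 2-fold, on the reported side, in 15 of 15 and 15 of 16 alternatives that gave a value. The counts were 14 of 15 for CYP3A76, 13 of 15 for CYP1A1, 12 of 15 for CYP26C1 and 10 of 16 for CYP17A1. These counts are not independent checks. Array names, the brightest probe, the filters on saturated and not found spots and the 2 later alternatives left CYP1A1, CYP26C1 and CYP17A1, each with 1 measured probe, unchanged. The counts include the table as labelled, whose rows follow other probes, and it is 1 of the 15 for CYP3A74. Only the deposited table as labelled turned a sign, to 0.40 for CYP17A1 and 0.53 for CYP26C1. The count of higher genes became 5 without scaling, 4 at 1.5-fold, and 1 at 3-fold, without a filter on dim probes or at a net signal of at least 50. It was 3 with quantile normalization, with spike-in scaling and with the deposited table with rows moved by 1. Of all genes, 20.2% passed 2-fold upwards without scaling, 1.34% without a filter and 2.41% at a net signal of at least 50. The members with a value were 23, 43 and 13 in these settings. The count of lower genes became 7 at 1.5-fold, 2 at 3-fold, with normexp or without scaling, and 1 at a net signal of at least 50. It was 3 with median scaling, with spike-in scaling and without a filter, and 5 with array names only. Of all genes, 3.28% passed 2-fold downwards with normexp, 2.65% without scaling and 6.14% at a net signal of at least 50. Shares of all genes at 1.5-fold and 3-fold were not taken.

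The median became -0.10 with median scaling, -0.055 with the brightest probe, -0.034 with quantile normalization and -0.0079 with spike-in scaling. With the deposited table it was -0.01 with rows moved by 1 and 0.07 as labelled. It was 0.0066 at a net signal of at least 50, 0 without a filter, 0.47 without scaling and -0.33 with array names only. Without a filter, dim signals were raised to a common floor, which put genes dim on both arrays at 0. The median of all genes was 0 there too. Signal over background limits these values: at a net signal of at least 50 only 13 of the 43 genes were measured, and no CYP3A gene was among them. The cause of the changes was not tested.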
